A study of Mus musculus with 26 samples.

Results

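Transcripts of 8 genes that carry or answer the adrenergic signal in fat were followed across diets and cell fractions: the adrenergic receptor genes Adrb1, Adrb3 and Adra2a, the protein kinase A subunit gene Prkar2b, and the thermogenic genes Ucp1, Dio2, Ppargc1a and Prdm16. They were chosen by name, as the rows of both gene count tables whose symbol was one of these, and are 8 of 39017 genes in each table. RNA was sequenced from the epididymal fat of male wild type C57BL/6J mice that were 9 to 10 weeks old at the start. Lean mice received a low fat diet (LFD, 10% fat) for 12 weeks, obese mice a high fat diet (HFD, 60% fat) for 12 weeks, and formerly obese mice (SW) the HFD for 9 weeks and then the LFD for 3 weeks, with about 10% weight loss. Collagenase digestion of the fat separated adipocytes, which float, from stromal vascular cells (SVC), whose red cells were lysed, and each fraction was sequenced. The columns that could be tied to a group by name gave 9 adipocyte libraries, 3 per diet, and 6 SVC libraries, of which 1 was LFD, 2 were HFD and 3 were SW. The labels list 3 SVC libraries for each diet. Another 3 SVC columns, whose names match no group's labels, were not used. SW sample titles name the low fat diet alone, and the treatment label, which gives the switch, was used.

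Noradrenaline from sympathetic nerves acts on fat cells through beta receptors, which raise cyclic AMP, and through alpha-2 receptors, which lower it. Cyclic AMP frees the catalytic subunits of protein kinase A from regulatory subunits such as the product of Prkar2b, and the kinase then drives lipolysis and, in brown and beige fat cells, heat production through the uncoupling protein Ucp1. Epididymal fat of the mouse is a white depot with few beige cells.

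The estimated counts summed to between 6142895 and 23725647 per adipocyte library and between 5781902 and 22195810 per SVC library. Levels are given as CPM, which relate each count to the TMM-scaled total of its library, within each fraction. Libraries are numbered within their group in the order of the table columns, which only names them, and values are given in that order. All 10 adipocyte markers were higher in adipocytes than in SVC under HFD and under SW, with sums of 12410 to 50800 CPM in adipocyte and 677 to 1284 CPM in SVC libraries, and none was at 0. Both fractions held RNA of other cells. In adipocyte libraries, the 9 macrophage markers measured summed to 652 to 1080 CPM in LFD, 7450 to 8503 CPM in HFD and 5605 to 8433 CPM in SW mice. The 2 SVC HFD libraries were unlike each other: mitochondrial transcripts took 6.34% of counts in library 1 and 33.5% in library 2, and the chi-square per degree of freedom between them was 376, against 12.8 to 89.5 for other pairs. In bulk RNA, fewer cells of a type and less RNA per cell cannot be told apart.

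Cyclic AMP reaches genes through a DNA element, the CRE, so the start sites of 3 of the thermogenic genes are shown with the matches found in them. Of the 8 genes, 7 had an entry among RefSeq's promoters on GRCm38.p6, and Adrb3 was not among them. The windows are the 250 bases upstream of the annotated start, 5′ to 3′ on the gene's strand, at chr8:83290098-83290347 (plus strand) for Ucp1, chr12:90739039-90739288 (minus strand) for Dio2 and chr4:154636874-154637123 (minus strand) for Prdm16. Capitals mark matches.
Ucp1: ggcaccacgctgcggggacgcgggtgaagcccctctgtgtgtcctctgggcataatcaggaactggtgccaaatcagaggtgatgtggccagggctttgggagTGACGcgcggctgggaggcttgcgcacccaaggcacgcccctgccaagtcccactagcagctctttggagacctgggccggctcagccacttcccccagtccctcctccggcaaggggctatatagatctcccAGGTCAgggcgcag
Dio2: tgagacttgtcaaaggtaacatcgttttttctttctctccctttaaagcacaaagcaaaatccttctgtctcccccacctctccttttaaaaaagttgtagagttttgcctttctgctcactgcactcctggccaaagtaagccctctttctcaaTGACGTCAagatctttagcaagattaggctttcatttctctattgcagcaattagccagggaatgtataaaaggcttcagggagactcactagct
Prdm16: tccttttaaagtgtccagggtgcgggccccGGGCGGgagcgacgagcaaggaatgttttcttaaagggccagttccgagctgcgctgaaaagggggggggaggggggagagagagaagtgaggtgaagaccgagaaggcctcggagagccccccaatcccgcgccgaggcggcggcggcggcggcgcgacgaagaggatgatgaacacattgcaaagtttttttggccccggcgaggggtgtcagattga
The letters searched on both strands were the CRE TGACGTCA, its half-site TGACG, which the CRE holds on both strands, the GC box GGGCGG, the nuclear receptor half-site AGGTCA and the E-box CACGTG. The Dio2 window held a whole CRE, a match that 1.546% of all 32851 windows of this length held. The Ucp1 window held 1 half-site TGACG, found in 17.77% of all windows, and 1 AGGTCA, found in 14.02%. Among the windows not shown, those of Ppargc1a, Adrb1 and Adra2a each held 1 half-site TGACG and no whole CRE. Those of Prkar2b held neither. The Prdm16 window held 1 GC box, found in 32.74% of all windows, while CACGTG was in 6.021% of windows and in none of these 3. A match describes the letters only and is not a binding site.

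In adipocytes, obesity went with far less Adrb3, which encodes the beta-3 receptor that dominates in rodent fat cells, with less Adra2a and with modestly less Prdm16. After the switch Adrb3 was 4.75-fold higher than in obesity, and all SW libraries lay below all LFD libraries, a difference that did not pass. Adra2a and Prdm16 were below the lean level after the switch and did not pass against obesity. Dio2 was lower after the switch than in obesity, and Ucp1, Ppargc1a, Adrb1 and Prkar2b did not pass the test between any diets. All adjusted p-values come from the quasi-likelihood test of edgeR, adjusted by Benjamini-Hochberg over all genes tested, with a threshold of 0.05. In HFD against LFD adipocytes, 3 of 8 genes were lower and 0 higher, where 25.0% of all 14461 genes tested were lower and 26.5% higher. In SW against HFD, 1 was higher and 1 lower, against 15.6% and 15.9% of all genes. In SW against LFD, 0 were higher and 2 lower, against 10.9% and 6.18%. These comparisons share libraries in pairs and are not independent of each other.

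**Figure D1:**
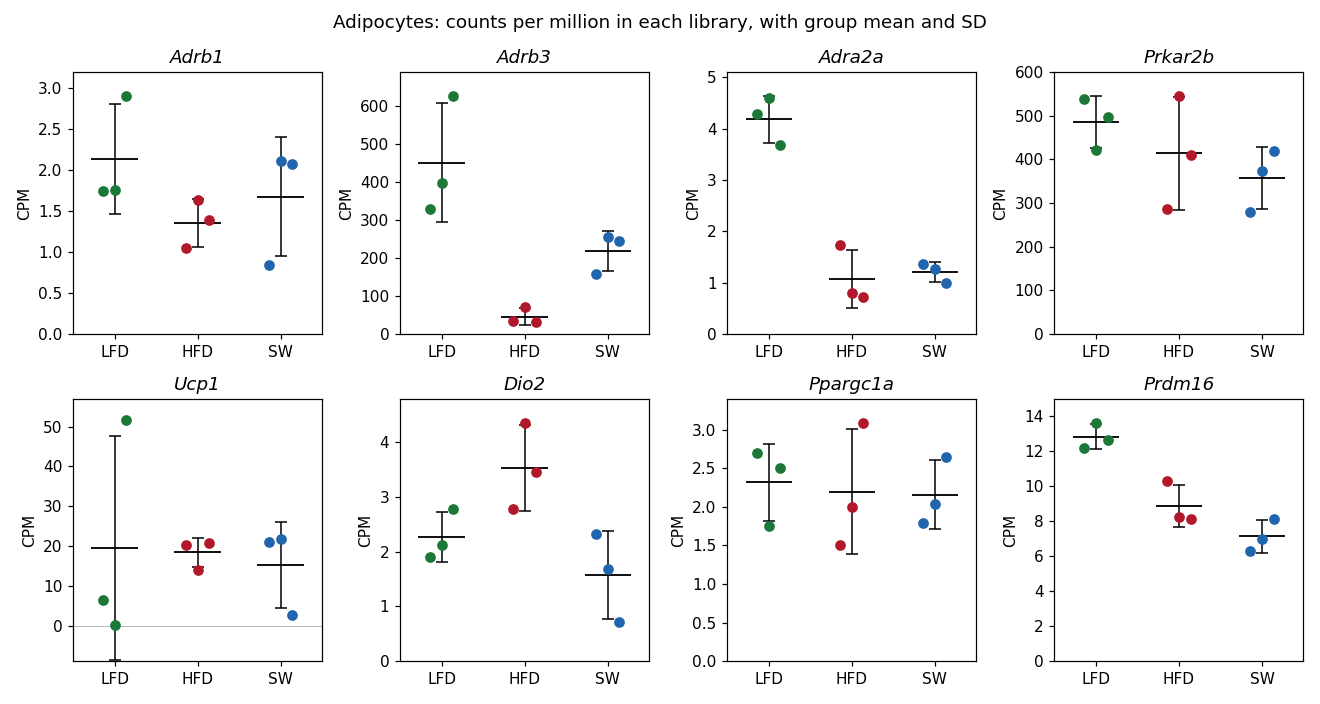
Level of each of the 8 genes in every adipocyte library (y axis, CPM, own scale per panel) by diet (x axis), with 3 libraries per diet as points and the mean and SD as black lines. Adrb3 is lowest in HFD with no overlap between diets, Adra2a and Prdm16 are highest in LFD, and 1 LFD library stands far above the other two for Ucp1.

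Adrb3 (ENSMUSG00000031489, GRCm38 chr8:27225776-27250616, minus strand) measured 329, 397 and 628 CPM in LFD, 35.8, 71.9 and 31.0 CPM in HFD, and 159, 256 and 244 CPM in SW adipocytes. The diets did not overlap, with LFD highest and HFD lowest. The HFD level was 9.74-fold below LFD (log2 -3.28 ± 0.38 SE, adjusted p = 9.31e-05). The SW level was 4.75-fold above HFD (log2 2.25 ± 0.36, adjusted p = 0.00487). Both calls held under all 18 alternative settings, with log2 values of -3.75 to -2.97 and of 2.02 to 2.69. Although all SW libraries lay below all LFD libraries, SW against LFD did not pass (log2 -1.04 ± 0.35, adjusted p = 0.0673, range 0.0151 to 0.223 over 18 alternatives). It passed with DESeq2 (adjusted p = 0.0151), with only the groups compared in the fit (0.0488) and without HFD library 2 (0.0278). An antisense gene, Gm45470, overlaps Adrb3, and since strand use in counting is not stated, their reads cannot be told apart.

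Adipocyte RNA itself shifted between diets, so Adrb3 was also set against Adipoq, the adiponectin gene of mature adipocytes. Of the 10 adipocyte markers, 7 were lower in HFD than in LFD, 5 were higher in SW than in HFD, and 0 passed in SW against LFD. Their sum was 32490 to 50800 CPM in LFD, 12410 to 21020 CPM in HFD and 28730 to 29370 CPM in SW. Adipoq itself fell by 1.68 on the log2 scale from LFD to HFD (SE 0.29, adjusted p = 0.00114), whereas Plin1, Plin4 and Lep did not pass. A ratio to Adipoq thus rises in HFD for any gene that falls less than Adipoq does. Ratios to other markers, which could give another order of the diets, were not taken. Per 1000 CPM of Adipoq, Adrb3 measured 123, 129 and 144 in LFD, 44.99, 48.1 and 36.0 in HFD, and 95.8, 113 and 106 in SW adipocytes. The diets thus did not overlap on this scale either, with a narrower spread within each diet than in CPM. How much of the change in Adrb3 goes with the adipocyte share was not tested beyond this ratio.

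**Figure D2:**
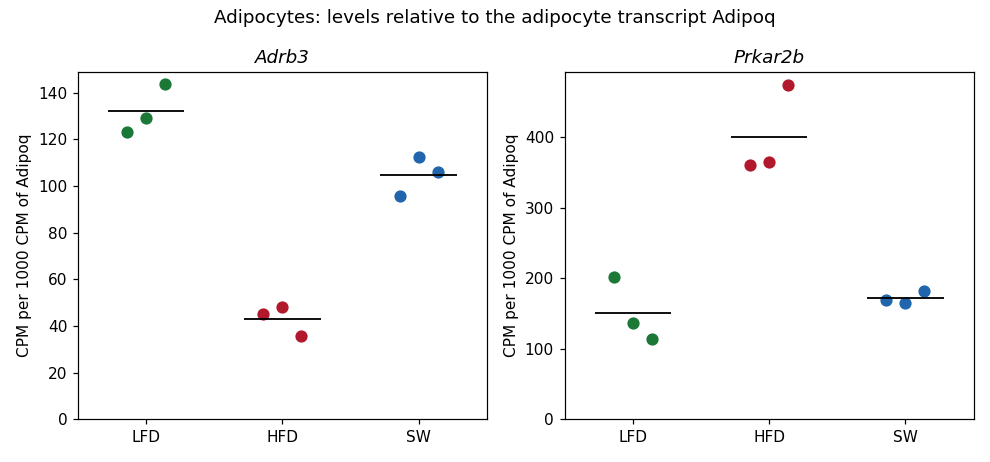
Adrb3 and Prkar2b in each adipocyte library (points, 3 per diet, with the mean as a line) as CPM per 1000 CPM of Adipoq (y axis) by diet (x axis). Adrb3 lies at 36.0 to 48.1 in HFD and 123 to 144 in LFD, while Prkar2b lies highest in HFD.

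Adra2a (ENSMUSG00000033717, chr19:54044151-54048982, plus strand) encodes the alpha-2A receptor, which couples to the inhibitory G protein. It was a rare transcript of 13 to 89 counts, at 4.28, 4.59 and 3.69 CPM in LFD, 1.73, 0.793 and 0.715 CPM in HFD, and 1.37, 1.26 and 1.00 CPM in SW adipocytes. LFD stood above both other diets without overlap, and HFD and SW overlapped. It was 4.04-fold lower in HFD (log2 -2.01 ± 0.35, adjusted p = 0.00106) and 3.48-fold lower in SW (log2 -1.80 ± 0.35, adjusted p = 0.00624) than in LFD. Both calls held under all 18 alternatives, and SW against HFD did not pass (log2 0.21 ± 0.37, adjusted p = 0.684). The separation of LFD was lost per 1000 CPM of Adipoq, with Adra2a at 1.60, 1.495 and 0.845 in LFD, 2.17, 0.531 and 0.830 in HFD and 0.822, 0.555 and 0.436 in SW, and the highest library was then one of HFD. Markers of some other cells moved the same way, while all 9 macrophage markers were higher than in LFD both in HFD and in SW. Of all genes, 25.0% were lower in HFD and 6.18% in SW than in LFD. Of 7 endothelial markers, 5 were lower than in LFD in HFD and 5 in SW, with sums of 1977 to 2169 CPM in LFD, 781 to 1470 CPM in HFD and 1081 to 1394 CPM in SW. Of 6 smooth muscle and pericyte markers, 4 were lower in both, with sums of 1512 to 1907 CPM in LFD, 483 to 699 CPM in HFD and 546 to 663 CPM in SW. Of 6 mesothelial markers, 5 were lower than in LFD in HFD and 3 in SW. They summed to 75.9 to 151.8 CPM in LFD, 8.60 to 37.3 CPM in HFD and 21.8 to 42.8 CPM in SW. No marker of these lists was at 0, and their part in the change of Adra2a was not tested.

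Adrb1 (ENSMUSG00000035283, chr19:56722199-56733113, plus strand), the beta-1 receptor gene, measured 1.74, 1.75 and 2.90 CPM in LFD, 1.052, 1.63 and 1.39 CPM in HFD, and 0.841, 2.10 and 2.08 CPM in SW adipocytes. HFD lay below LFD without overlap, but on 11 to 39 counts the difference did not pass (log2 -0.61 ± 0.38, adjusted p = 0.202). SW overlapped both diets, and neither of its comparisons passed (adjusted p = 0.534 and 0.649). The order of HFD and LFD turned per 1000 CPM of Adipoq, with 0.654, 0.571 and 0.664 in LFD, 1.32, 1.09 and 1.61 in HFD and 0.506, 0.925 and 0.903 in SW. Adipoq itself was lower in HFD, so this order depends on the marker chosen as the scale.

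Of 8 adrenergic receptor genes, 5 were lower in HFD than in LFD and 0 higher, where 25.0% of all genes were lower and 26.5% higher. The 8 had a median log2 value of -1.58, against -0.03 for all genes. Beside Adrb3 and Adra2a the 5 lower genes were Adra2c (log2 -3.06 ± 0.45, adjusted p = 0.000424), Adra2b (-2.47 ± 0.48, adjusted p = 0.00206) and Adra1b. All 3 alpha-2 receptor genes were among them. In SW against HFD, Adrb3 was higher and Adra1a (log2 -0.64 ± 0.21, adjusted p = 0.0428) lower, with a median of 0.27. Of all genes, 15.6% were higher and 15.9% lower. In SW against LFD, Adra2c (-1.98 ± 0.43, adjusted p = 0.011), Adra2a and Adra2b (-1.70 ± 0.48, adjusted p = 0.0341) were lower and 0 were higher, with a median of -0.98. Of all genes, 6.18% were lower and 10.9% higher. The 3 alpha-2 genes were thus still below the lean level after the switch, and none of them passed in SW against HFD. On average Adra2b (0.422 against 0.236 CPM) and Adra2c (0.614 against 0.296 CPM) were higher in SW than in HFD. Adrb3 was higher than in obesity, and its SW libraries also lay below all LFD libraries without passing (log2 -1.04 ± 0.35, adjusted p = 0.0673). Adra2b and Adra2c rest on few counts. Adra2b had 7 to 33 counts in LFD, 3 to 8 in HFD and 4 to 7 in SW adipocytes. Adra2c had 12 to 62 counts in LFD, 4 to 8 in HFD and 4 to 14 in SW adipocytes.

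Per kilobase of the longest transcript, Adrb3 was the most abundant of the 8 receptors under each diet, at 161 ± 56.0 CPM per kb in LFD, 16.5 ± 8.0 in HFD and 78.7 ± 18.9 in SW adipocytes (SD, n = 3). Adrb1 stood at 0.723 ± 0.225, 0.459 ± 0.0980 and 0.567 ± 0.244, and Adra2a at 0.867 ± 0.0945, 0.223 ± 0.117 and 0.250 ± 0.0389 CPM per kb. In LFD the means of Adrb1 and Adra2a differed by less than the SD of Adrb1 and by more than that of Adra2a. Their LFD libraries overlapped on this scale.

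**Figure D3:**
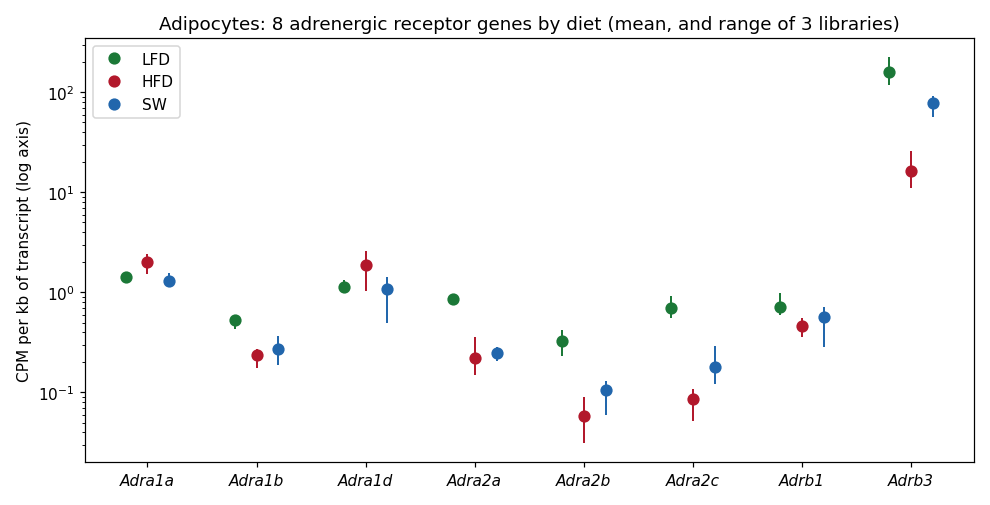
Mean level of 8 adrenergic receptor genes in adipocytes (y axis, CPM per kb of transcript, log axis) by diet, with vertical lines from the lowest to the highest of 3 libraries. Adrb3 is highest under every diet, from 16.5 in HFD to 161 in LFD, and the 3 alpha-2 genes are highest in LFD.

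Prkar2b (ENSMUSG00000002997, chr12:31958476-32061296, minus strand) encodes RII-beta, the regulatory subunit of protein kinase A that prevails in fat. It was abundant, at 538, 421 and 496 CPM in LFD, 287, 546 and 408.9 CPM in HFD, and 281, 374 and 420 CPM in SW adipocytes. HFD overlapped both other diets, and the SW libraries lay just below the LFD ones. No diet comparison passed, and the log2 values were -0.23 ± 0.24, -0.21 ± 0.24 and -0.44 ± 0.24 for HFD against LFD, SW against HFD and SW against LFD (adjusted p = 0.446, 0.524 and 0.244). Per 1000 CPM of Adipoq, which was itself lower in HFD, Prkar2b measured 202, 137 and 114 in LFD, 361, 365 and 475 in HFD and 169, 164 and 183 in SW. On this scale alone HFD lay above both other diets without overlap.

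Around Prkar2b, 25 genes of the relay from receptor to protein kinase A were tested in adipocytes. In HFD against LFD 12 were higher, led by the adenylyl cyclases Adcy7 (log2 4.27 ± 0.42, adjusted p = 3.98e-05) and Adcy9 (3.39 ± 0.33, adjusted p = 3.66e-05), and 4 were lower, led by Adcy4 (-1.02 ± 0.24, adjusted p = 0.00636) and the inhibitory G protein gene Gnai1 (-0.87 ± 0.24, adjusted p = 0.0125). Of all genes, 26.5% were higher and 25.0% lower, and the median over the list was 0.16, against -0.03 over all genes. In SW against HFD 0 were higher and 7 lower, led by Adcy9 (-2.49 ± 0.29, adjusted p = 0.00207) and Prkar2a (-1.68 ± 0.34, adjusted p = 0.00884), with a median of -0.16, where 15.6% of all genes were higher and 15.9% lower. In SW against LFD 4 were higher, led by Adcy7 (2.72 ± 0.41, adjusted p = 0.0014) and Rgs2 (2.07 ± 0.20, adjusted p = 0.000109), and 3 were lower, led by Prkar1b and Akap12, with a median of -0.05, where 10.9% of all genes were higher and 6.18% lower. All 9 macrophage markers tested were higher in HFD than in LFD and in SW than in LFD, and their part in the rise of Adcy7 was not tested. Phosphodiesterases break cyclic AMP down, and of 15 gene identifiers for 14 of them, 5 were higher in HFD than in LFD, led by Pde3a (1.99 ± 0.65, adjusted p = 0.0266) and Pde8b (1.27 ± 0.20, adjusted p = 0.000676), and 3 lower, led by Pde1a (-1.30 ± 0.20, adjusted p = 0.000522), with a median of -0.04. These counts were near the shares of all genes, 26.5% higher and 25.0% lower. Pde4d has 2 identifiers in the tables, and 1 was higher and 1 lower.

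Ucp1 (ENSMUSG00000031710, chr8:83290352-83298452, plus strand), whose product uncouples respiration to make heat, varied more within diets than between them. It measured 6.66, 0.413 and 51.7 CPM in LFD (42, 8 and 392 counts), 20.4, 14.2 and 20.9 CPM in HFD and 21.1, 21.9 and 2.79 CPM in SW adipocytes. The highest and the lowest of the 9 libraries were both LFD, and the HFD libraries were close together. HFD against LFD was at log2 -0.04 ± 1.21 (adjusted p = 0.984). One library decided this value: without LFD library 3 it was 2.80 (adjusted p = 0.078, range 0.078 to 1.00 over 17 alternatives). With limma-voom it was 2.71 (adjusted p = 0.102). SW against HFD (-0.28 ± 1.19, adjusted p = 0.878) and SW against LFD (-0.31 ± 1.23, adjusted p = 0.892) did not pass either, and the latter turned to 2.52 without LFD library 3, to 0.19 without SW library 3 and to 1.95 with limma-voom.

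Of the 23 brown and beige fat genes tested, Ucp1 included, 15 were highest among the LFD libraries in library 3, 7 in library 1 and 1 in library 2. The share of all genes that were highest in library 3 was not counted, so these counts have no background. Library 3 also had the highest adipocyte marker sum, 50800 CPM against 32490 and 44360 CPM in libraries 1 and 2, and its part was not tested. Some of these genes were rare, such as Fgf21 and Tmem26 with 4 counts and Esrrg with 7 in their highest LFD library. The lipid droplet gene Cidea was at 11.5 to 47.3 CPM, the cytochrome oxidase subunit gene Cox8b at 27.3 to 53.3 CPM and Cox7a1 at 5.88 to 15.3 CPM over the LFD libraries, with the top of each range in library 3, whereas Ppargc1a was highest in library 1 and Prdm16 in library 2. Zic1, a gene of classical brown fat, had 0 counts in each adipocyte library of LFD and SW mice and at most 1 count in those of HFD mice, and Lhx8 had 3 counts or fewer in each.

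Dio2 (ENSMUSG00000007682, chr12:90724552-90738438, minus strand) encodes the deiodinase that makes active thyroid hormone inside the cell and is a cyclic AMP target in brown fat. It measured 1.90, 2.12 and 2.77 CPM in LFD, 2.78, 4.34 and 3.44 CPM in HFD and 2.31, 1.68 and 0.715 CPM in SW adipocytes, on 10 to 104 counts. HFD lay above SW without overlap and just above LFD. It was 2.30-fold lower in SW than in HFD (log2 -1.20 ± 0.37, adjusted p = 0.0358), while HFD against LFD (0.65 ± 0.37, adjusted p = 0.167) and SW against LFD (-0.55 ± 0.40, adjusted p = 0.379) did not pass. The call of SW against HFD was lost in 7 of 18 alternatives (adjusted p 0.0152 to 0.0944). These were the fit of only the groups compared (0.0559) and the fits without HFD library 1 (0.0545), 2 (0.0944) or 3 (0.0924), LFD library 2 (0.0518) and SW library 2 (0.0669) or 3 (0.0789). Per 1000 CPM of Adipoq, which was itself lower in HFD, Dio2 measured 0.713, 0.689 and 0.6335 in LFD, 3.497, 2.91 and 3.995 in HFD and 1.39, 0.740 and 0.311 in SW. HFD lay above both other diets on this scale too. The lncRNA gene Gm26512 overlaps Dio2 on the other strand.

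Ppargc1a (ENSMUSG00000029167, chr5:51454250-51567726, minus strand), whose product PGC-1alpha coactivates mitochondrial genes, measured 2.70, 1.75 and 2.51 CPM in LFD, 1.503, 2.004 and 3.09 CPM in HFD and 1.79, 2.04 and 2.65 CPM in SW adipocytes. In CPM the diets overlapped throughout, and the log2 values were -0.02 ± 0.33, -0.03 ± 0.32 and -0.06 ± 0.34 for HFD against LFD, SW against HFD and SW against LFD (adjusted p = 0.964, 0.947 and 0.934). These values rest on 17 to 69 counts per library. Per 1000 CPM of Adipoq, which was itself lower in HFD, Ppargc1a measured 1.01, 0.571 and 0.573 in LFD, 1.89, 1.34 and 3.58 in HFD and 1.075, 0.898 and 1.15 in SW. On this scale alone HFD lay above both other diets without overlap.

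Prdm16 (ENSMUSG00000039410, chr4:154316125-154636873, minus strand) encodes a transcriptional regulator of the brown and beige fat cell programme. It measured 12.2, 13.6 and 12.7 CPM in LFD, 10.3, 8.22 and 8.14 CPM in HFD and 6.31, 6.97 and 8.16 CPM in SW adipocytes. Every LFD library stood above every other one, and HFD and SW met at 8.14 and 8.16 CPM. It was 1.80-fold lower in SW than in LFD (log2 -0.84 ± 0.16, adjusted p = 0.00504), a call that held under all 18 alternatives. It was 1.46-fold lower in HFD than in LFD (log2 -0.54 ± 0.15, adjusted p = 0.0147), a call lost with library totals in place of scaling factors (0.0618) and without HFD library 2 (0.0524), HFD library 3 (0.0733) or LFD library 2 (0.0646), in a range of 0.00736 to 0.0733. SW against HFD did not pass (log2 -0.30 ± 0.16, adjusted p = 0.158). The endothelial and smooth muscle markers described with Adra2a were lower in the same groups, and their part in this was not tested. Per 1000 CPM of Adipoq, Prdm16 measured 2.90 to 4.58 in LFD, 5.50 to 13.0 in HFD and 3.06 to 3.80 in SW. Relative to Adipoq, which was itself lower in HFD, HFD was thus highest. Genes on the other strand overlap Prdm16, among them B230104I21Rik.

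**Figure D4:**
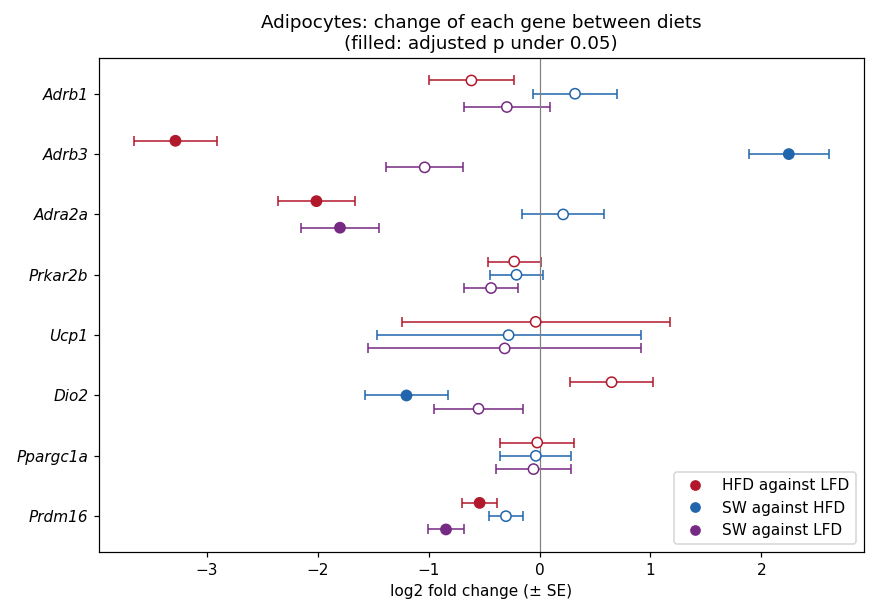
Log2 fold change of each gene between diets in adipocytes (x axis, with SE bars from edgeR) for 3 comparisons in colour, filled where the adjusted p was under 0.05. Adrb3 lies at -3.28 in HFD against LFD and 2.25 in SW against HFD, Adra2a and Prdm16 are below 0 in HFD and SW against LFD, and the bars of Ucp1 are the widest.

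Most of the wider set of brown and beige fat genes did not pass between diets. Of 23 tested in adipocytes, 14 did not pass in HFD against LFD, 5 were higher in HFD than in LFD, led by Otop1 (log2 1.86 ± 0.30, adjusted p = 0.000642) and Tmem26 (1.68 ± 0.50, adjusted p = 0.0175), and 4 were lower, led by Cidea (-1.58 ± 0.51, adjusted p = 0.0267) and Cox8b (-1.33 ± 0.33, adjusted p = 0.007), with a median of 0.25. Both counts were below the shares of all genes (26.5% higher and 25.0% lower). In SW against HFD, Cox8b was higher (1.31 ± 0.32, adjusted p = 0.016) and Esrrg (-1.31 ± 0.38, adjusted p = 0.0277), Dio2 and Otop1 were lower, with a median of -0.28. Of all genes, 15.6% were higher and 15.9% lower. In SW against LFD, Otop1 was higher (1.02 ± 0.30, adjusted p = 0.0443) and Prdm16 lower, with a median of -0.08. Of all genes, 10.9% were higher and 6.18% lower.

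Heat can also be made by cycles of creatine and calcium, and all 7 of those genes tested passed in HFD against LFD, 5 higher and 2 lower, with a median of 1.26. Of all genes, 26.5% were higher and 25.0% lower, and these shares also apply to the HFD against LFD counts below. Among the 5, Slc6a8 and Ckb were lower in adipocytes than in SVC under HFD and SW. Ryr2 was higher in adipocytes under both diets, and Gatm under SW. Macrophage markers also rose in HFD adipocyte libraries, and their part was not tested. Gatm, of creatine synthesis (log2 2.35 ± 0.22, adjusted p = 2.96e-05), and the creatine transporter gene Slc6a8 (2.09 ± 0.14, adjusted p = 7.55e-06) rose, and Alpl (-1.70 ± 0.18, adjusted p = 5.51e-05) and Gamt (-0.85 ± 0.20, adjusted p = 0.00557) fell. Gatm and Slc6a8 were still higher in SW than in LFD (1.64 ± 0.22, adjusted p = 0.000675, and 1.60 ± 0.14, adjusted p = 7.11e-05), among 3 higher and 1 lower. Of all genes, 10.9% were higher and 6.18% lower in that comparison. Of 10 repressors and cofactors of the brown programme, 2 were higher in HFD than in LFD (Rbl1, 1.32 ± 0.22, adjusted p = 0.000826, and Ctbp2) and 5 lower, led by Twist1 (-0.63 ± 0.17, adjusted p = 0.00966) and Med1, with a median of -0.35, and 0 passed in SW against LFD. Around Dio2, of 4 thyroid hormone genes tested 0 were higher and the receptor genes Thra (-0.83 ± 0.12, adjusted p = 0.00039) and Thrb (-0.53 ± 0.20, adjusted p = 0.0499) were lower in HFD than in LFD. Of 6 nerve and Schwann cell markers, 3 could be tested and 1 was lower in HFD than in LFD, S100b (-0.88 ± 0.22, adjusted p = 0.00676), with the markers at summed levels of 17.2 to 24.3 CPM in LFD, 5.55 to 13.1 CPM in HFD and 9.99 to 13.7 CPM in SW. Th and Dbh, which make noradrenaline, were at 0 in every LFD and SW adipocyte library. In HFD, Th was above 0 in each adipocyte library and Dbh in library 2 alone. Of the other marker lists, 5 of 6 mesothelial and 5 of 5 erythrocyte markers were lower in HFD than in LFD, 3 of 7 fibroblast and progenitor markers were higher and 1 lower, and none of the 3 T cell, 3 B cell and 1 epididymis markers tested passed by edgeR.

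In SVC all 8 genes were low, and switched mice had less Prkar2b and Ucp1 than obese mice. In SW against HFD, 7 of the 8 genes could be tested, Dio2 being under the filter, and 0 were higher and 2 lower, against 5.71% higher and 11.7% lower of 16319 genes. Prkar2b measured 19.4 and 14.0 CPM in HFD, 9.26 CPM in LFD and 6.74, 6.57 and 5.05 CPM in SW libraries. The SW libraries lay below both HFD libraries, a 2.72-fold difference (log2 -1.45 ± 0.31, adjusted p = 0.0382). Prkar2b was 20.1-fold (HFD) and 43.4-fold (SW) higher in adipocytes, and the part of adipocyte RNA in its SVC levels was not tested. The call was lost with library totals (0.0916) and without HFD library 1 (0.11) or SW library 1 (0.064), 2 (0.0765) or 3 (0.158), in a range of 0.00405 to 0.158 over 15 alternatives. Where HFD library 1 or 2 was left out, the lone HFD library was assumed to vary like the other groups.

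Ucp1 had 15 and 46 counts in the SVC HFD libraries (0.870 and 3.17 CPM), 2 counts in LFD and 3, 0 and 1 counts in SW libraries. Each SW library was thus at or under the 3 counts that a count of 0 allows. Over the pooled counts, 61 against 4, the ratio of HFD to SW was 20.7 with an exact 95% interval of 7.67 to 78.3, which covers counting error only. The fit across genes gave adjusted p = 0.0433, and the call was lost with limma-voom (0.101), with library totals (0.0888) and without any one of the 5 libraries (0.0652 without HFD library 1, 0.0961 without HFD library 2, 0.0844 without SW library 1, 0.0692 without SW library 2 and 0.159 without SW library 3), in a range of 0.0141 to 0.159.

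Adrb3 measured 1.28 and 1.104 CPM in SVC HFD, 11.2 CPM in the LFD library and 2.69, 3.73 and 4.33 CPM in SVC SW libraries. SW lay above HFD without overlap, with log2 1.57 ± 0.44 and adjusted p = 0.0532 (range 0.0244 to 0.191 over 15 alternatives), and it passed with DESeq2 (0.0244) and with at least 10 counts in every library (0.0308). Adra2a showed the same order, with 0.406 and 0.138 CPM in HFD, 4.54 CPM in LFD and 0.703, 1.21 and 0.515 CPM in SW libraries (log2 1.51 ± 0.80, adjusted p = 0.194). The adipocyte markers in SVC summed to 969 to 1284 CPM in HFD, 1142 CPM in LFD and 677 to 1006 CPM in SW, a sum in which Fabp4 held the largest part in HFD (mean 794 CPM, against 185 in LFD and 187 in SW). The sum of all 10 did not have the order of Adrb3. Without Fabp4, left out after its values were seen, the other 9 summed to 226 to 440.5 CPM in HFD, 957 CPM in LFD and 512 to 752 CPM in SW, which is that order. Of the 10 markers, 6 had mean levels in that order (Cfd, Cidec, Lipe, Plin1, Plin4 and Slc2a4). Adipoq and Pnpla2 were highest on average in SW, and Fabp4 and Lep in HFD. On average 8 were higher in SW than in HFD. By edgeR, Slc2a4 and Plin4 were higher and Fabp4 lower in SW than in HFD, with a median log2 value of 1.12 over the 10. The part of adipocyte RNA in the SVC levels of Adrb3 and Adra2a was not tested. Per 1000 CPM of Adipoq, Adrb3 in SVC was at 318 in LFD, 100.0 and 35.6 in HFD and 63.2 to 89.3 in SW. Adipoq itself was low there, at 35.1 CPM in LFD, 12.8 and 31.0 CPM in HFD and 30.1 to 68.5 CPM in SW. With 1 LFD library there is no replicate check of its values.

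The remaining genes did not pass in SVC. Adrb1 was at 0.812 and 0.414 CPM in HFD, 0.349 CPM in LFD and 0.951, 0.986 and 1.24 CPM in SW (log2 0.77 ± 0.70, adjusted p = 0.426). Prdm16 was at 2.96 and 1.66 CPM in HFD, 2.45 CPM in LFD and 2.73, 1.42 and 1.65 CPM in SW (-0.24 ± 0.54, adjusted p = 0.755). Ppargc1a had 14 and 4 counts in HFD, 0 in LFD and 9, 3 and 2 in SW libraries (-0.81 ± 0.94, adjusted p = 0.525). Dio2 had 9 and 2 counts in HFD, 0 in LFD and 7, 2 and 0 in SW libraries. A count of 0 in the LFD library allows up to 0.524 CPM, which is above most of these levels.

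**Figure D5:**
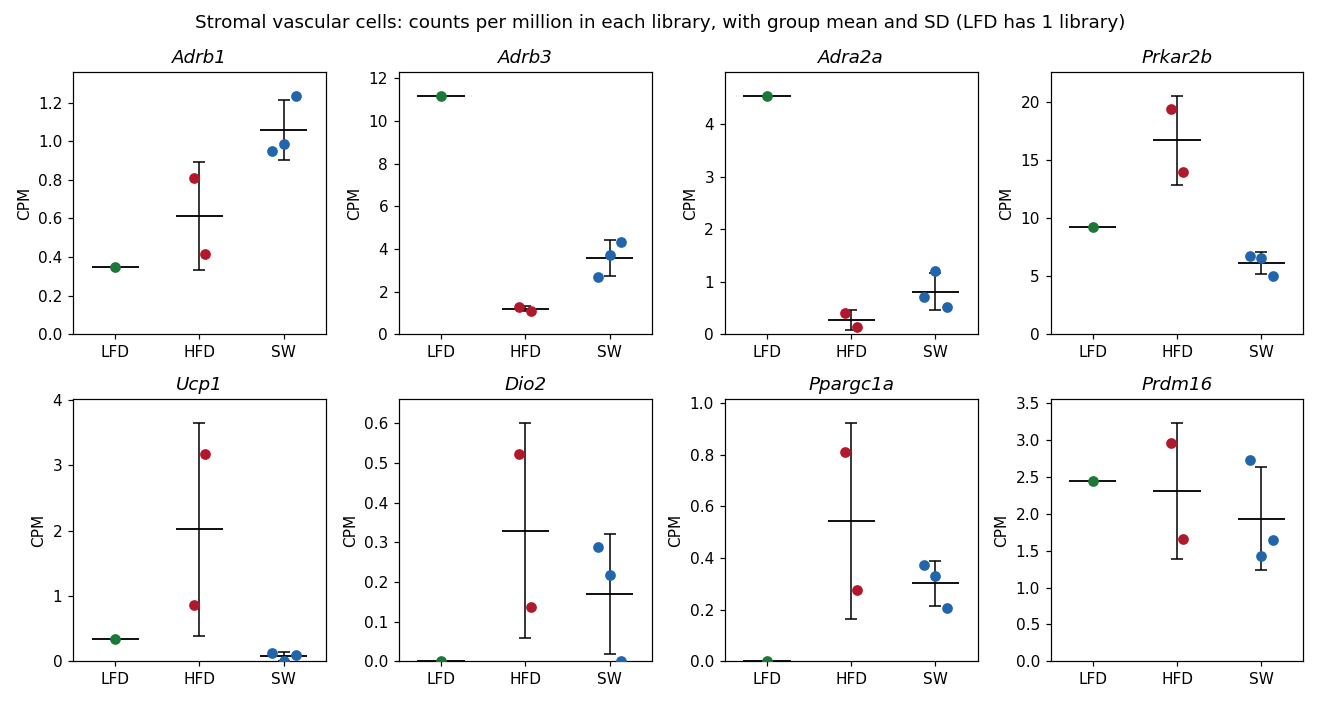
Level of each gene in every SVC library (y axis, CPM, own scale per panel) by diet (x axis), with 1 LFD, 2 HFD and 3 SW libraries as points and the mean and SD as black lines. Prkar2b and Ucp1 lie lower in SW than in HFD, and Adrb3 and Adra2a are highest in the single LFD library.

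Among the wider lists in SVC, 1 of 8 adrenergic receptor genes passed in SW against HFD, Adra1b, which was higher (log2 2.06 ± 0.52, adjusted p = 0.0461). Of 26 relay genes 2 were higher, Adcy5 (1.29 ± 0.26, adjusted p = 0.0381) and Prkar1b (1.07 ± 0.28, adjusted p = 0.0476), and 6 lower, led by Rgs2 (-2.69 ± 0.47, adjusted p = 0.0362) and Gnai3 (-2.37 ± 0.41, adjusted p = 0.0362). Of 15 phosphodiesterase identifiers 0 were higher and 2 lower, and of 18 brown and beige fat genes Ucp1 alone passed. Of all 16319 genes tested in SVC, 5.71% were higher and 11.7% lower.

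Between fractions, the 2 abundant genes Adrb3 and Prkar2b were by far higher in adipocytes, and Dio2, Ppargc1a and Prdm16 were also higher there. Under HFD 5 of 8 genes were higher in adipocytes and 0 lower, against 12.9% and 16.2% of 17441 genes, and under SW 6 were higher and 0 lower, against 32.8% and 35.6%. These folds come from a fit of both fractions scaled together. Adrb3 was 31.2-fold higher in adipocytes under HFD (log2 4.96 ± 0.50, adjusted p = 3.26e-05) and 46.9-fold under SW (5.55 ± 0.41, adjusted p = 2.55e-07). Prkar2b was 20.1-fold higher under HFD (4.33 ± 0.33, adjusted p = 6.78e-06) and 43.4-fold under SW (5.44 ± 0.29, adjusted p = 8.73e-08). For both genes the calls held under all 23 alternatives.

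Prdm16 was 3.11-fold higher in adipocytes under HFD (log2 1.64 ± 0.31, adjusted p = 0.00256) and 2.66-fold under SW (1.41 ± 0.28, adjusted p = 0.000533). Dio2 was 8.42-fold higher under HFD (3.07 ± 0.73, adjusted p = 0.00795, lost without SVC HFD library 2 at 0.066, range 0.000337 to 0.066 over 22 alternatives) and 5.80-fold under SW (2.54 ± 0.68, adjusted p = 0.00501). Ppargc1a was 3.26-fold higher under HFD (1.70 ± 0.52, adjusted p = 0.0254) and 5.06-fold under SW (2.34 ± 0.49, adjusted p = 0.000836). Its call under HFD was lost with library totals (0.0546) and without adipocyte HFD library 2 (0.0505) or 3 (0.0953) or SVC HFD library 2 (0.186), in a range of 0.00986 to 0.186.

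Ucp1 passed between fractions under SW (adjusted p = 0.00463) but not with limma-voom (0.104), the highest of 22 alternatives that went down to 6.69e-06. The pooled counts were 604 in adipocyte and 4 in SVC libraries, a ratio of 120 with an exact 95% interval of 46.7 to 442 for counting error only. Under HFD it did not pass (log2 2.86 ± 1.39, adjusted p = 0.138), and it passed only without adipocyte LFD library 2 (0.0469, range 0.0469 to 0.356). Adra2a came close under HFD (1.61 ± 0.57, adjusted p = 0.0509) and passed without SVC HFD library 1 (0.031), the SVC LFD library (0.0495), SVC SW library 2 (0.0412) or SVC SW library 3 (0.0498), in a range of 0.031 to 0.295, whereas under SW it was at 0.17 ± 0.47 (adjusted p = 0.754). Adrb1 did not pass under HFD (0.84 ± 0.51, adjusted p = 0.227) or SW (0.27 ± 0.44, adjusted p = 0.601).

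Whether the fractions differed in their response to the switch was also tested. Of the 8 genes 1 differed, Prkar2b, with 15.7% of 17441 genes at a more positive and 11.4% at a more negative change in adipocytes. The change of Prkar2b was less negative in adipocytes by log2 1.11 ± 0.37 (adjusted p = 0.0387, edgeR). The call was lost with library totals (0.0694) and without adipocyte HFD library 1 (0.0719) or 3 (0.0742), adipocyte SW library 2 (0.073) or 3 (0.0855), SVC HFD library 1 (0.138) or SVC SW library 3 (0.0738), in a range of 0.0157 to 0.138 over 23 alternatives. For Adrb3, which rose from HFD to SW in adipocytes and was at log2 1.57 in SVC without passing, the difference was 0.59 ± 0.60 (adjusted p = 0.505).

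Over the 9 adipocyte libraries and 14460 other genes, the levels most like Adrb3 on the log2 CPM scale were those of Klhdc8b (Pearson r = 0.998), Nrbp2 (0.995) and Mterfd1 (0.993). Those most like Ucp1 were Cited1 (r = 0.893), Fabp3 (0.892), a fatty acid binding protein gene, and Tmem106c (0.870). These are descriptions over libraries that fall into 3 diets, and they share libraries, depth and cell makeup. Ucp1 itself went with Dio2 at r = 0.43, Ppargc1a at 0.12, Cidea at 0.37 and Prdm16 at -0.38.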

How the data were processed

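RNA was sequenced from the adipocytes and SVC of mouse epididymal fat, in 26 labelled records of 18 libraries. By their titles, all adipocyte SW records were paired-end, while every other group held both paired-end and single records. Columns cannot be tied to records, so read layout was not modelled. Per the labels, polyadenylated RNA was made into TruSeq libraries and read on an Illumina HiSeq. The authors aligned the reads with Bowtie2 to the transcriptome, and RSEM, which splits reads that genes share, estimated the counts. Each deposited value is such an estimated count of a gene, a whole number without any normalization. The submitters' processing notes name mm9, Bowtie2, RSEM and limma, and versions are not given in the sources used here. Each column was assigned to a group by its name. The column names carry numbers that are in no label, and nothing ties a column to a mouse, so p-values measure the spread between libraries. Another 3 columns of values, whose names match no group's labels, were not used.

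Each fraction was fitted with edgeR 4.0.16 (R 4.3.3): low counts removed by filterByExpr (minimum count 10), scaling by TMM, all diet groups in a robust quasi-likelihood fit without covariates, and Benjamini-Hochberg adjusted p under 0.05. Comparisons between fractions used 1 fit of both. The counting interval is an exact conditional binomial one. The fits were tested on simulated data. Every pair of libraries within a group differed by more than counting noise. Gene positions and longest transcripts are from GENCODE M21 (GRCm38), another build than that of the counts, and promoters are from RefSeq (GRCm38.p6). The 8 genes, the lists of receptors, relay, phosphodiesterase, brown and beige fat, creatine and calcium cycling, repressor and thyroid genes, and the cell markers were chosen with earlier results of these data known. Some genes of these lists are not reported here and are left out of their counts. Named examples are the 2 highest and 2 lowest log2 fold changes past the threshold in a list, or fewer, and the likeness rule names the 3 genes with the highest Pearson r. Genes named for LFD library 3, and Zic1, Lhx8, Th and Dbh, were picked after their values were seen. Alternatives were DESeq2 1.42.0, limma-voom (limma 3.58.1), RLE and upper-quartile factors, no filter, at least 10 counts in every library, only the groups compared, and each library left out. Library totals without factors, and counts without mitochondrial transcripts, were added after seeing the data. Python 3.11.15, pandas 2.3.3, numpy 2.4.6, scipy 1.17.1 and matplotlib 3.10.9 were used for tables and plots.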

Additional observations from a re-analysis of the deposited data

Results flagged for a closer look

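Prkar2b differed between fractions in its change from HFD to SW: the log2 change in adipocytes minus that in SVC was 1.11 ± 0.37 (edgeR's quasi-likelihood test, adjusted p = 0.0387). The SVC HFD libraries were above all 3 SVC SW libraries, while the adipocyte groups overlapped. Prkar2b was far higher in adipocytes than in SVC, and the part of adipocyte RNA in its SVC levels was not tested.

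Adrb1 had opposite signs for HFD against LFD in the 2 fractions on the CPM scale, and the adipocyte difference did not pass (edgeR, adjusted p = 0.202). In adipocytes the log2 ratio of mean CPM was -0.65 and all 3 HFD libraries were below all LFD libraries, whereas in SVC it was 0.81 and both HFD libraries were above the LFD library. Per 1000 CPM of Adipoq the signs were the same, with HFD above LFD in adipocytes (1.09 to 1.61 against 0.571 to 0.664) and in SVC (63.6 and 13.3 against 9.95). This ratio cannot settle the signs, because Adipoq itself was lower in HFD adipocytes and low in SVC. Its SVC levels were 12.8 and 31.0 CPM in HFD and 35.1 CPM in LFD. The SVC LFD value rests on 2 counts of 1 library, and the difference was not tested.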

How the results depend on the processing

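Of 1060 log2 values of the 8 genes under alternatives, 982 kept their direction and side of the threshold, 36 lost and 10 gained a call, and 32 changed sign, none of which had passed the threshold. Adrb3 between diets (HFD against LFD and SW against HFD) and fractions, Prkar2b and Prdm16 between fractions, and Adra2a and Prdm16 in SW against LFD kept their calls in every alternative run, as did Adra2a in HFD against LFD. No paired analysis was possible because the columns carry no replicate numbers of the labels. Low counts limit Adrb1, Adra2a, Dio2 and Ppargc1a, as well as Adra2b and Adra2c of the receptor list. The single LFD library limits SVC.

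In SVC, SW against HFD called 2849 genes, 5222 with DESeq2, 1719 with limma-voom and 0 by edgeR with library totals (5864 at an unadjusted p under 0.05), and 0 to 6213 with 1 library left out: 503 without HFD library 1, 6213 without HFD library 2, 593 without SW library 2, and 0 without SW library 1 (5435 unadjusted) or 3 (4217 unadjusted). Calls among the 8 genes went from 2 to 1 with limma-voom and 0 with library totals, and to 0 to 2 with 1 library left out. The share of calls that were higher was 32.7%, and 47.4% with DESeq2. In adipocytes SW against HFD called 4546 genes, and 1522 to 4554 with 1 library left out, the lowest without HFD library 3 and 2299 without HFD library 1. Calls among the 8 went from 2 to 1 with only the groups compared, and to 1 to 2 with 1 library left out. Between fractions under HFD, 5078 genes were called, 3002 with library totals, which moved the share higher from 44.2% to 59.1%, and 2528 to 7044 with 1 library left out, with 2528 without SVC HFD library 2 and 3255 without adipocyte HFD library 2. Calls among the 8 were 3 with at least 10 counts in every library, where fewer of them were tested, and 3 to 6 with 1 library left out. Under SW they were 3 with that filter, and library totals moved the share higher from 48.0% to 58.3%. For the difference between fractions, calls among the 8 were 0 with library totals and 0 to 1 with 1 library left out, and all calls ran from 2936, without SVC HFD library 1, to 6622. Library totals moved the median log2 value of all genes by 0.23 (HFD) and 0.37 (SW) between fractions, by 0.11 for the difference and by -0.11 for adipocyte SW against HFD, and the filter of 10 counts moved it by 0.15 between fractions under SW.

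In adipocyte HFD against LFD, Ucp1 was at 2.71 with limma-voom and 0.0072 without a filter, and -0.67 to 2.80 with 1 library left out. Ppargc1a was at 0.031 with limma-voom, 0.030 without a filter, 0.026 with at least 10 counts in every library and 0.0065 with library totals, and -0.35 to 0.17 with 1 left out. In SW against HFD, Ppargc1a was at 0.012 with upper-quartile factors. With 1 library left out it was at -0.24 to 0.28, Adra2a at -0.041 to 0.66, Prkar2b at -0.42 to 0.016 and Ucp1 at -0.68 to 0.22. In SW against LFD with limma-voom, Ucp1 was at 1.95 and Ppargc1a at 0.020, and with 1 left out at -0.95 to 2.52 and -0.26 to 0.061. In SVC, Prdm16 was at -0.68 to 0.31. For the difference between fractions, Dio2 was at -1.70 to 0.37, Ppargc1a at -0.25 to 1.22 and Prdm16 at -0.63 to 0.25. The causes were not tested.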
